A study of Rattus norvegicus with 5 samples.

Results

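Glucose enters retinal cells through facilitative transporters, is trapped by hexokinases and is then oxidised through pyruvate or, where glucose is plentiful, diverted into the polyol pathway, in which aldose reductase makes sorbitol and sorbitol dehydrogenase turns it into fructose. Diabetic retinopathy has long been linked to that diversion. Müller cells, the radial glia that span the retina, take up glucose and have been proposed to pass lactate on to neurons. Described here are 10 genes of glucose uptake and use among the 4737 genes that had a probe set with 1 gene symbol. They were taken by symbol, with every probe set of each gene, which gave 22 probe sets. The genes encode the transporters GLUT1 (Slc2a1) and GLUT3 (Slc2a3), hexokinases 1 and 2 (Hk1, Hk2), aldose reductase (Akr1b1), sorbitol dehydrogenase (Sord), ketohexokinase (Khk), the acetyltransferase subunit of pyruvate dehydrogenase (Dlat) and the pyruvate dehydrogenase kinases 2 and 4 (Pdk2, Pdk4).

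RNA of Müller cells from male Sprague-Dawley rats was measured on 5 oligonucleotide arrays. The diabetic group was 2 arrays of cells from rats kept diabetic for 6 months after streptozotocin, a toxin of the insulin-producing cells, and given low insulin doses so that they would not waste. The normal group was 3 arrays of healthy rats, 1 pool of cells each, and every pool in the study combined the retinas of 12 rats. Because the labels call diabetic array 2 a technical replicate, both diabetic arrays stood for 1 pool, and age and cell purity are not given in the labels. For these genes the comparison asks whether the machinery that takes up and uses glucose differs.

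Of the Müller cell markers, 8 were measured by the array, all 8 were bright enough to be tested, and their summed signal was 38478 to 39633 on diabetic arrays and 33127 to 43826 on normal arrays. Taken singly, 2 lay above and 6 below normal, with a median log2 difference of -0.16, where 48.8% of all tested probe sets lay above. Both diabetic arrays exceeded all normal arrays for Clu and lay below them for Car2. Signals of other retinal cells were present too. Photoreceptor markers summed to 12756 to 13582 on diabetic arrays and 4283 to 10085 on normal arrays, and microglial and leukocyte markers to 2499 to 2768 on diabetic arrays and 1811 to 2204 on normal arrays. Markers of inner retinal neurons summed to 1335 to 1526 on diabetic arrays and 1196 to 2000 on normal arrays. Of the 10 tested, 2 lay above and 8 below normal, with a median log2 difference of -0.17. Astrocyte markers summed to 1737 to 1751 on diabetic arrays and 1169 to 1967 on normal arrays. The pigment epithelium gene Rpe65, the only measured marker of that layer, lay at the floor on all 5 arrays. Median deposited signals ran from 62.1 to 73.1 on diabetic arrays and from 27.9 to 91.3 on normal arrays, so the values below are quantile-normalised signals with a floor of 20. Normal array 3 and diabetic array 2 shared a hybridisation day and chip lot, the other 2 normal arrays had a day and lot each, and these entries are blank for diabetic array 1. In whole-cell RNA of this kind, fewer cells of a type and less RNA per cell cannot be told apart.

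Among these genes Hk2 stood farthest above normal, and it did so on 1 of its 2 probe sets. Of the 22 probe sets, 3 were control sets of Hk1 that were kept out of the fit, 2 were too dim to be tested and 17 were tested along with the rest of the array. None of the 17 passed limma's test after adjustment over all 6118 tested probe sets, and neither did any other probe set (0% called). A single one had an unadjusted p under 0.05, above normal, where 1.19% of all tested probe sets did so above normal and 0.409% below. The 17 divided into 9 above and 8 below normal, with a median log2 difference of 0.003 against -0.01 over all tested probe sets, of which 48.8% lay above normal. By unscaled deposited values 16 of 17 lay above normal, but all tested probe sets then shifted by a median of 0.47, and relative to that shift 9 did.

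**Figure D1:**
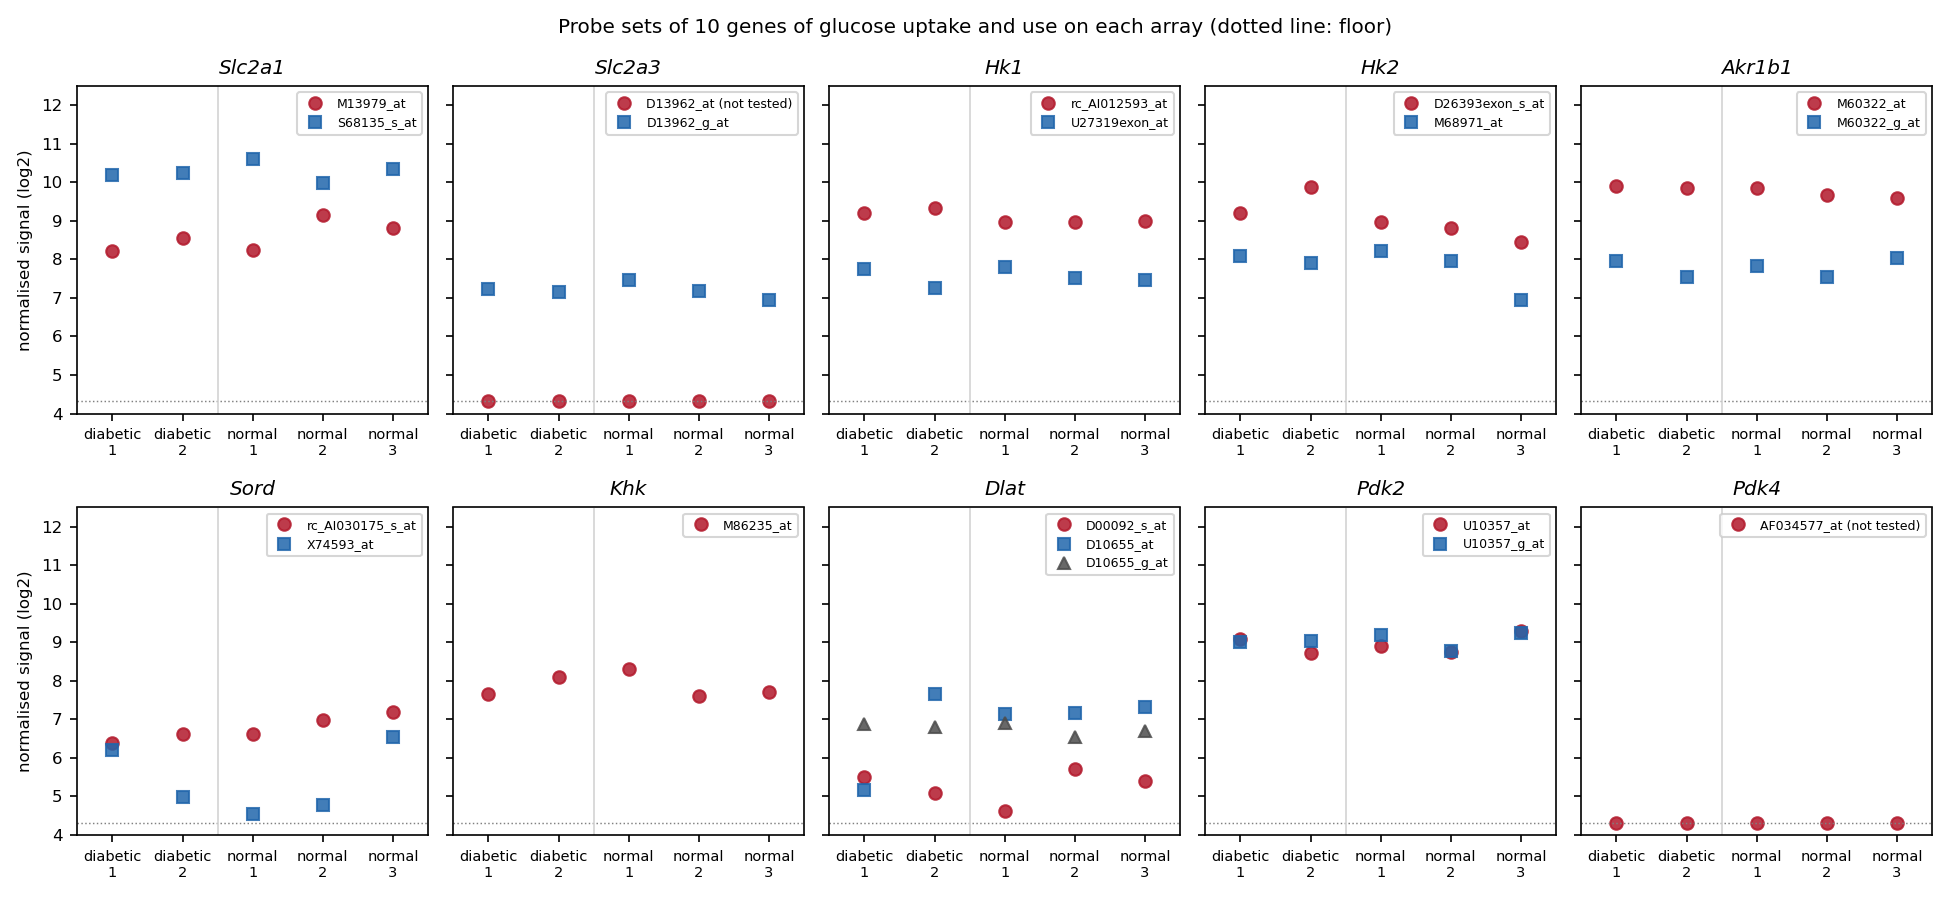
Normalised signal (log2, vertical axis) of the 19 probe sets other than the Hk1 controls on each array, with the 2 diabetic arrays left of the vertical line and the 3 normal arrays right of it; each symbol is 1 array and the dotted line is the floor. Both diabetic arrays lie above all normal arrays for D26393exon_s_at of Hk2 and rc_AI012593_at of Hk1, and Pdk4 sits on the floor throughout.

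GLUT1, the transporter that carries glucose across the blood-retinal barrier and into glia, overlapped between the groups on both of its probe sets. Probe set S68135_s_at of Slc2a1 had normalised signals of 1170 and 1216 on the diabetic arrays, against 1550, 1012 and 1299 on the normal arrays. Both diabetic values were inside the normal range. The log2 difference was -0.09 (SE 0.31, 95% interval -0.86 to 0.68). Probe set M13979_at of the same gene read 296 and 375 on the diabetic arrays, against 305, 572 and 454 on the normal arrays. Here the low normal value, that of array 1, lay between the diabetic ones, and the log2 difference was -0.37 (SE 0.41, 95% interval -1.38 to 0.65). With 1 array left out, that difference ran from -0.62, without normal array 1, to -0.16, without normal array 2. Endothelial cells and pigment epithelium also carry GLUT1. The summed signal of endothelial and pericyte markers was 2480 to 2982 on diabetic arrays and 2546 to 3429 on normal arrays, and that of erythrocyte markers 1119 to 1162 on diabetic arrays and 776 to 1378 on normal arrays, so both ranges overlapped. Most of the endothelial and pericyte sum came from Kdr. It read 2019 and 2554 on the diabetic arrays, against 2823, 2058 and 2299 on the normal arrays. Of the 7 tested markers of that list 2 lay above and 5 below normal, with a median log2 difference of -0.24. Over all tested probe sets 48.8% lay above normal.

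GLUT3, the high-affinity transporter best known from neurons, had nearly the same mean in both groups. Probe set D13962_g_at of Slc2a3 read 150.4 and 143 on the diabetic arrays, against 175, 144 and 124 on the normal arrays. The diabetic values lay within the normal spread, with a log2 difference of 0.003 (SE 0.38), and the 95% interval of -0.94 to 0.95 leaves room for nearly a doubling either way. The partner probe set D13962_at was at the floor on all 5 arrays and was not tested.

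Hexokinase 2, the inducible form that binds mitochondria and is regulated by insulin in muscle and fat, had the highest ratio to normal among the 17 tested probe sets. D26393exon_s_at of Hk2 read 594 and 946 on the diabetic arrays, against 506, 449 and 351 on the normal arrays. The groups did not overlap, although diabetic array 1 lay closer to normal array 1 than to diabetic array 2. By the maker's naming, the suffix _s marks a probe set that can match more than 1 related sequence, so its signal is less certain to come from the named gene alone. The same limit holds for S68135_s_at of Slc2a1, rc_AI030175_s_at of Sord and D00092_s_at of Dlat. The diabetic pool was at 1.74 times normal, a log2 difference of 0.80 (SE 0.31, 95% interval 0.04 to 1.56), which did not pass adjustment over all probe sets (limma, unadjusted p = 0.0427, adjusted p = 0.999923). Without diabetic array 2 the log2 difference was 0.47, without diabetic array 1 it was 1.13, and between the 2 arrays of the shared day and lot it was 1.43. The unadjusted p lay between 0.0135 and 0.386 over 14 alternatives and was above 0.05 in 9 of them, among them median scaling (0.0852), leaving out normal array 2 (0.0889) or 3 (0.0856) and leaving out diabetic array 2 (0.175).

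The other probe set of Hk2 did not show this separation. M68971_at read 274 and 239 on the diabetic arrays, against 296, 248 and 123 on the normal arrays. Only normal array 3 stood apart, and it was low. The log2 difference was 0.30 (SE 0.55, 95% interval -1.07 to 1.66), and it was -0.08 without normal array 3. Hexokinase 2 is also abundant in photoreceptors. Of 16 listed photoreceptor markers 8 were measured and tested, and all 8 lay above normal, by a median log2 difference of 0.82 and with both diabetic arrays above all normal arrays for 5, where 48.8% of all tested probe sets lay above normal and 9.53% did so without overlap. Normal array 3 was the lowest array for both Hk2 probe sets and for the summed photoreceptor signal. Of 17 listed leukocyte markers 10 were tested, 8 of them above normal and 6 without overlap, with a median of 0.45 over the 10. In each list 1 marker had an unadjusted p under 0.05 in limma, Opn1sw (0.0275) among photoreceptor and Coro1a (0.0346) among leukocyte markers, and 0 passed adjustment. The part of either cell type in the Hk2 difference was not tested.

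Hexokinase 1, the constitutive form of brain and retina, showed a small offset on 1 probe set. rc_AI012593_at of Hk1 read 592 and 642 on the diabetic arrays, against 501, 499 and 513 on the normal arrays. The normal arrays were close together here, with an SD of 0.02 on the log2 scale, and both diabetic values exceeded them. The pool was at 1.22 times normal (log2 difference 0.29, SE 0.24, limma unadjusted p = 0.278). Over 14 alternatives that p ran from 0.0202, with no filter on dim probe sets, to 0.596, and it was above 0.05 in 13. The SE exceeds what these arrays alone would give, since limma draws it toward the spread of probe sets of like brightness. The gene's other tested probe set, U27319exon_at, read 215 and 152 on the diabetic arrays, against 224, 184.5 and 178 on the normal arrays, for a log2 difference of -0.10 (SE 0.33) with overlapping groups. Together with that of Hk2, this made 2 of 17 probe sets with both diabetic arrays above all normal arrays, beside 9.53% over all tested probe sets, and 0 of 17 with both below, beside 7.01%.

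The array also carries Hk1 as a check of RNA integrity, with separate control probe sets for the 5' end, the middle and the 3' end of the transcript. Since labelling starts from the 3' end, shortened RNA lowers the 5' signal relative to the 3' signal. The ratio of 3' to 5' deposited signal was 3.99 and 4.76 on the diabetic arrays, against 2.25 and 2.12 on normal arrays 2 and 3. On normal array 1 the 3' set read 62 and the 5' set only 5.9, a deposited ratio of 10.5 and the highest of any array. That 5' value was at the floor once normalised, so the size of this ratio is uncertain. Both diabetic arrays were higher than normal arrays 2 and 3 and, by deposited values, lower than normal array 1. The ratio of 3' to middle signal was 1.62 and 3.97 on the diabetic arrays, against 2.58, 1.78 and 1.29 on the normal arrays. For beta-actin the 3' to 5' ratio was 1.76 and 2.55 on the diabetic arrays, against 2.61, 1.52 and 1.46 on the normal arrays, so that diabetic array 2 and normal array 1 were the highest. The Gapdh ratio did not single out the same pair, at 1.11 and 1.35 on the diabetic arrays, against 1.16, 1.24 and 1.03 on the normal arrays. The part of RNA integrity in the probe set differences was not tested beyond leaving out the 2 arrays with the high actin ratio. That gave a log2 difference of 0.60 for D26393exon_s_at and 0.24 for rc_AI012593_at. It gave -0.80 for M13979_at of Slc2a1 and -0.73 for rc_AI030175_s_at of Sord. In that setting 12 of the 17 tested probe sets of these genes lay above normal, beside 50.7% of all tested probe sets.

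**Figure D2:**
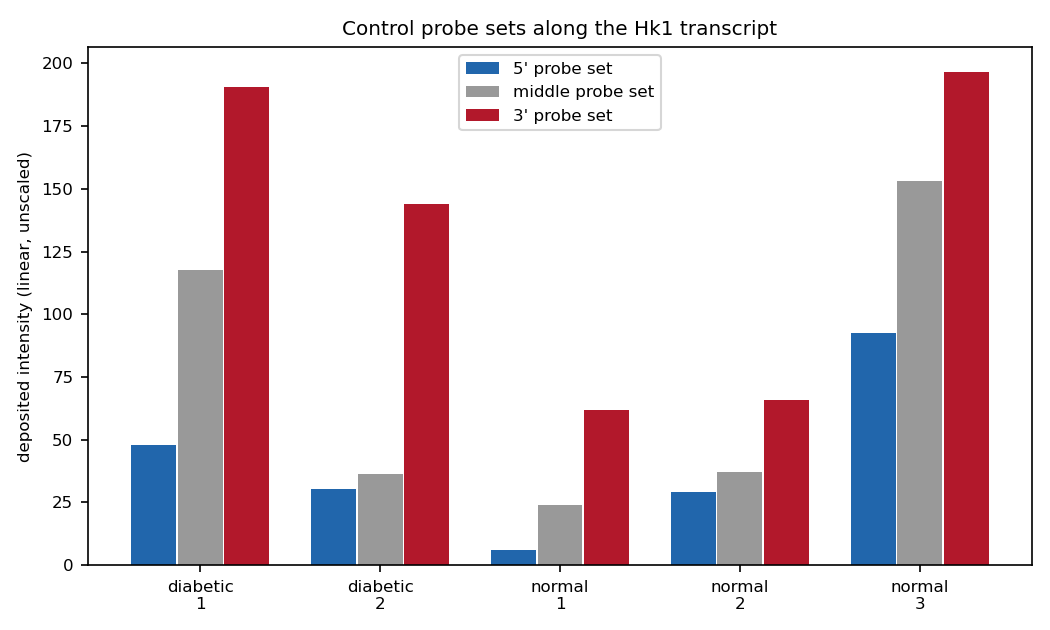
Deposited intensity (linear, not brought to a common scale) of the 3 control probe sets along the Hk1 transcript, with the 2 diabetic arrays left of the 3 normal arrays and 1 bar per probe set and array. On each array the 3' bar is the tallest and the 5' bar the shortest; heights can be compared only within an array, and on normal array 1 the 5' bar, at 5.9, is at the floor once normalised.

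Aldose reductase, which reduces glucose to sorbitol and is the entry step of the polyol pathway, overlapped between the groups on both probe sets. M60322_at of Akr1b1 read 959 and 920 on the diabetic arrays, against 930, 808 and 776 on the normal arrays. The diabetic values sat at the top of the normal range, around normal array 1, and the log2 difference of 0.17 had an SE of 0.25 and a 95% interval of -0.45 to 0.78. The upper end of that interval is 1.72 times normal. The second probe set, M60322_g_at, read 250.1 and 186 on the diabetic arrays, against 228, 186 and 262 on the normal arrays, and gave -0.05 (SE 0.34), which is the opposite sign.

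Sorbitol dehydrogenase, the second step of the polyol pathway, had probe sets that disagreed in sign. rc_AI030175_s_at of Sord read 84.1 and 99.2 on the diabetic arrays, against 98.3, 126 and 147 on the normal arrays. Diabetic array 2 only just overlapped normal array 1. The pool was at 0.747 times normal, a log2 difference of -0.42 (SE 0.42, 95% interval -1.48 to 0.64), and -0.57 between the arrays of the shared day. With 1 array left out, that difference ran from -0.59, without normal array 1, to -0.28, without normal array 3. X74593_at read 73.8 and 31.5 on the diabetic arrays, against 23.2, 27.4 and 92.9 on the normal arrays. Neither group was uniform on that probe set, the normal arrays spanning a 4.003-fold range, so its log2 difference of 0.31 (SE 0.89) has a 95% interval of -1.90 to 2.52, and diabetic array 2 minus normal array 3 gave -1.56.

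Ketohexokinase, which phosphorylates the fructose that the polyol pathway makes, had closely similar means. M86235_at of Khk read 202 and 273 on the diabetic arrays, against 316, 194 and 208 on the normal arrays. The highest value was a normal one, the groups overlapped, and the log2 difference was 0.01 (SE 0.39, 95% interval -0.97 to 0.98).

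Past pyruvate, the largest difference below normal came from 1 probe set of Dlat, the core subunit on which the pyruvate dehydrogenase complex is built, and it rested on 1 array. D10655_at of Dlat read 36.2 and 203 on the diabetic arrays, against 141, 145 and 161 on the normal arrays. Diabetic array 1 was the lowest and diabetic array 2 the highest of all 5. These arrays are described as technical repeats, yet they differed by 5.61-fold, and only 0.196% of tested probe sets had a larger difference between them. The pool's log2 difference was -0.80 (SE 0.36, limma unadjusted p = 0.0728). Leaving out diabetic array 2 gave -2.07, and leaving out diabetic array 1 gave 0.45. Of 14 alternatives 4 had an unadjusted p under 0.05 in limma, out of a range of 0.00355 to 0.850 and with the lowest adjusted p at 0.544, namely no filter (0.0229), no normal array 1 (0.0455), no diabetic array 2 (0.00355) and only the arrays of low actin ratio (0.00727), and the last pair held diabetic array 1 as the lone diabetic array.

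The remaining probe sets of Dlat did not show a low diabetic array 1. D10655_g_at, designed on the same sequence entry, read 117 and 111.5 on the diabetic arrays, against 119.6, 93.8 and 104 on the normal arrays, for a log2 difference of 0.12 (SE 0.40). D00092_s_at read 45.8 and 33.8 on the diabetic arrays, against 24.6, 52.5 and 41.9 on the normal arrays, for 0.06 (SE 0.60). Both had overlapping groups. Between the arrays of the shared day and lot, D10655_at, D10655_g_at and D00092_s_at gave log2 differences of 0.34, 0.10 and -0.31.

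The kinases that switch pyruvate dehydrogenase off by phosphorylation are induced by fasting and diabetes in muscle and heart, Pdk4 foremost. In these cells AF034577_at, the only probe set of Pdk4, had deposited signals of 4.6 and 4.6 on the diabetic arrays, against 3.1, 3.5 and 5.1 on the normal arrays. All of these lay below the floor of 20, so the probe set gave no order between arrays and was not tested. Pdk2, the widely expressed kinase, read 512 and 525 on the diabetic arrays with U10357_g_at, against 582, 438 and 602 on the normal arrays, and the diabetic values lay in the middle of the normal ones. Its log2 difference was -0.04 (SE 0.30, 95% interval -0.79 to 0.70), and that of U10357_at, at 540 and 421 on the diabetic arrays against 477, 427 and 634 on the normal arrays, was -0.09 (SE 0.32).

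**Figure D3:**
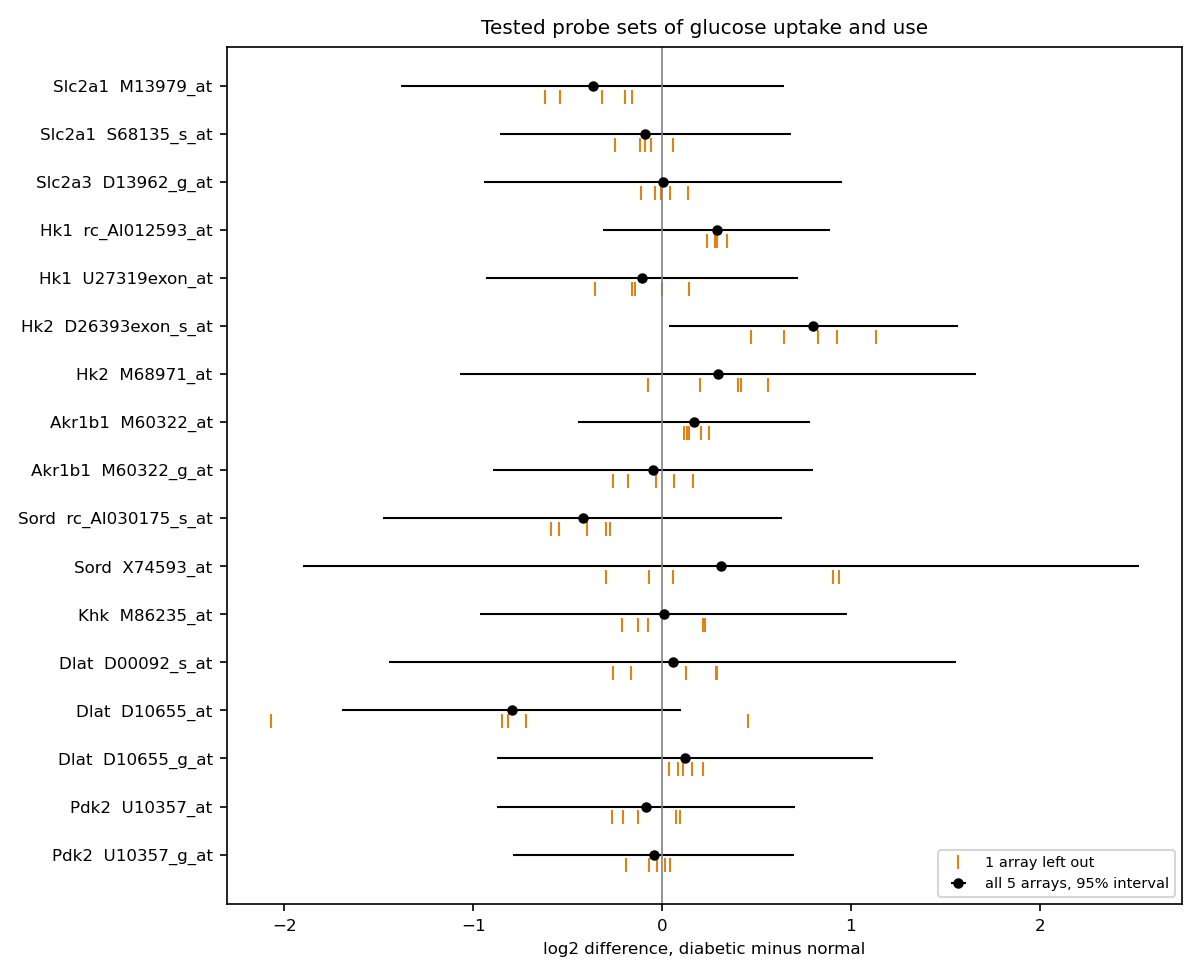
Log2 difference between the diabetic pool and the 3 normal pools (horizontal axis) for the 17 tested probe sets; black points and bars are the estimate and its 95% interval from limma, and orange ticks are the 5 estimates with 1 array left out. All intervals but that of Hk2 D26393exon_s_at include 0, and the ticks of Dlat D10655_at run from -2.07 to 0.45.

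Spread between arrays set how much these genes could show. The median range over the 3 normal arrays was 0.53 on the log2 scale for these 17, against 0.70 for all tested probe sets, and the median gap between the diabetic arrays was 0.34, against 0.36. For 15 of the 17 the difference between groups was under 0.5 in either direction, and for 9 the whole 95% interval lay within 1. For those 9 a doubling and a halving of the signal both lay outside the interval, and for the other 8 at least one of them did not. Among the 7 genes with more than 1 tested probe set, Hk1, Akr1b1, Sord and Dlat had probe sets on both sides of 0, whereas those of Slc2a1, Hk2 and Pdk2 lay on 1 side.

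**Figure D4:**
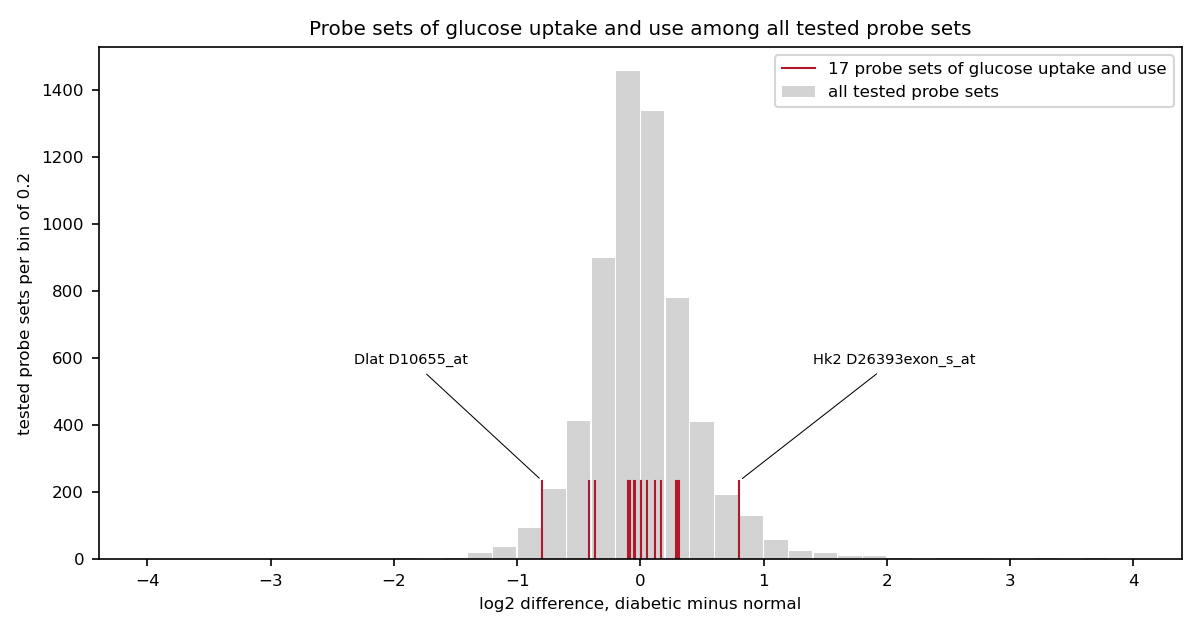
Number of tested probe sets (vertical axis) per bin of log2 difference, diabetic minus normal (horizontal axis), in grey for all 6118, with red ticks at the 17 probe sets of glucose uptake and use. Most ticks lie near the centre, and D10655_at of Dlat and D26393exon_s_at of Hk2 mark their ends at -0.80 and 0.80.

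No gene of the wider pathways of glucose metabolism passed the test, and neither did any other tested probe set. Of 125 further gene symbols on 10 lists covering glycolysis, the citric acid cycle, glycogen, the pentose phosphate and hexosamine pathways, sugar and lactate transport and their regulators, 63 could be tested by their brightest probe set. They comprised 25 above and 38 below normal with a median log2 difference of -0.05, where 48.8% of all tested probe sets lay above. After adjustment 0 passed limma's test, beside 0% of all tested probe sets. At an unadjusted p under 0.05 in limma 0 did, beside 1.19% above normal and 0.409% below over all tested probe sets. Both diabetic arrays exceeded all normal arrays for 4 of the 63 (Ldhb, Dlst, Slc5a1 and Esrra) and lay below them for 5 (Pfkm, Pfkfb1, Pc, Cs and Slc16a3), beside the 9.53% and 7.01% of all tested probe sets.

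Glycolysis had 5 genes above and 9 below normal. Pfkm, a subunit of the phosphofructokinase that commits sugar to glycolysis, read 393 and 498 on the diabetic arrays, against 698, 617 and 615 on the normal arrays. The groups did not overlap, and the log2 difference was -0.54 (SE 0.25), with -0.50 on a second probe set. At the other end, Pfkfb2, which makes the activator of that enzyme, had 0.73 (SE 0.53) with overlapping groups. Ldhb, the lactate dehydrogenase subunit that favours pyruvate, read 505 and 485 on the diabetic arrays, against 443, 286 and 296 on the normal arrays (log2 difference 0.56, SE 0.35).

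Around pyruvate, Pc, the carboxylase that feeds the citric acid cycle in glia, read 162 and 193 on the diabetic arrays, against 234, 236 and 273 on the normal arrays, without overlap (log2 difference -0.48, SE 0.30, and -0.41 on a second probe set). The phosphatase gene Pdp2, which reverses the work of the kinases, gave 0.37 (SE 0.52), and the list had 3 genes above and 3 below. In the citric acid cycle, 3 above and 4 below, citrate synthase (Cs) read 94.6 and 98.8 on the diabetic arrays, against 123, 129.7 and 154 on the normal arrays. That is a log2 difference of -0.48 (SE 0.38) without overlap, and Suclg1, a subunit of succinyl-CoA ligase, gave 0.27 (SE 0.45).

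Among other transporters, 4 above and 4 below, the lactate exporter gene Slc16a3 read 146 and 135 on the diabetic arrays, against 182, 166 and 191 on the normal arrays, again without overlap (log2 difference -0.35, SE 0.33). The fructose transporter gene Slc2a5 gave 0.44 (SE 0.90), with normal arrays from 27.7 to 118. The liver transporter gene Slc2a2 was at the floor on all arrays.

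The remaining lists were short or mixed. Glycogen genes were 4 above and 5 below, between Gsk3b at -0.29 (SE 0.45) and Phkg2, a phosphorylase kinase subunit, at 1.03 (SE 1.12, with normal array 1 at the floor). A second probe set of Gsk3b gave 0.02. In the pentose phosphate pathway Taldo1 gave 0.14 (SE 0.45) and Tkt -0.10 (SE 0.46), and in the hexosamine pathway Pgm3 gave 0.08 (SE 0.56) and Ogt -0.32 (SE 0.72). The only tested gluconeogenic gene, Fbp2, had -0.49 (SE 0.52). All 3 tested genes of other aldo-keto reductases and methylglyoxal handling lay below normal, from -0.21 (SE 0.23) for Akr1a1 to -0.07 (SE 0.37) for Akr7a2. Regulators were 4 above and 7 below, from the nuclear receptor gene Ppard at -0.33 (SE 0.56) to Esrra at 1.05 (SE 0.67), where normal array 2 was at the floor. Another tested probe set of Ppard gave 0.27, the opposite sign.

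**Figure D5:**
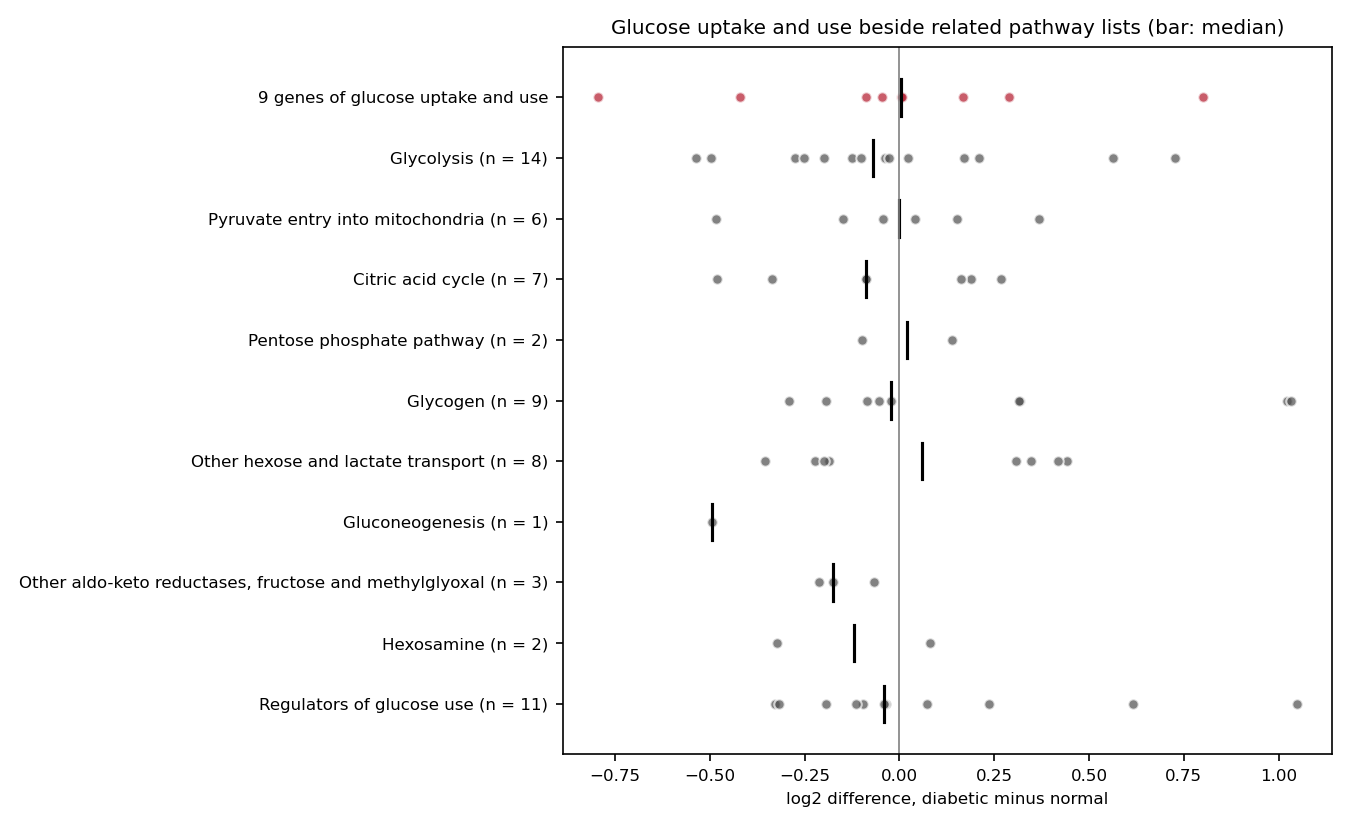
Log2 difference, diabetic minus normal (horizontal axis), of each tested gene by its brightest probe set, for the genes of glucose uptake and use in red and 10 related pathway lists in grey; black bars are medians and n is the number of genes. Each list with more than 3 genes spans 0, and none of the points passed the adjusted test.

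There was 1 diabetic pool, so the p-values above take their spread from normal cells alone and assume that diabetic pools vary alike. The exception is the alternative with the 5 arrays as separate samples, which counts the 2 diabetic arrays of 1 pool as independent. For D26393exon_s_at of Hk2 that alternative gave an unadjusted p of 0.0208 in limma. An exact permutation of 1 pool against 3 cannot give a p below 0.25.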

How the data were processed

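Rat Affymetrix expression arrays, per the file headers, measured total RNA of 5 Müller cell samples. The deposited values are linear intensities per probe set, and the sources used here do not say how the authors summarised or scaled them. The experiment records served only to find shared days and chip lots. Intensities of 8799 probe sets were quantile normalised, floored at the 20th percentile or 20, whichever was higher, and converted to log2. After leaving out 59 control probe sets and the dimmest 30% by the mean of the group means, 6118 were tested in limma 3.58.1 (R 4.3.3, lmFit, eBayes with trend) as 1 diabetic pool, the mean of its 2 arrays, against 3 normal pools. P-values were two-sided, adjusted by Benjamini-Hochberg over all tested probe sets, with a threshold of 0.05; there were 2 residual degrees of freedom. The step was tested on simulated data. Fold changes are on the floored log2 scale and understate those of dim genes. The number of arrays limits the precision.

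Symbols came from the platform annotation; all 10 genes matched RefSeq's GRCr8 table by Entrez ID and 0 changed. For each gene the tested probe set with the highest mean signal was taken. The rule named every probe set of the 10 genes and, of each list, the genes with the highest and lowest log2 difference and any with an unadjusted p under 0.05; the genes without overlap between groups were added after their values were seen. The 10 genes and the lists were chosen with earlier results of these data known. No genome build is named, so no coordinates are given. Figures were drawn with matplotlib 3.10.9.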

Additional observations from a re-analysis of the deposited data

How the results depend on the processing

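No probe set of the 10 genes passed an adjusted p of 0.05 in limma under any alternative that was run. Over all probe sets, limma called 170 with dim probe sets kept and 13 with the 5 arrays as separate samples, against 0 in the reported fit and 0 with any 1 array left out; the cause was not tested. Before adjustment, p was under 0.05 for 73 probe sets above normal and 25 below as reported, for 34 and 0 unscaled, and for 56 and 7 with median scaling. Other settings in which a count moved by over 1.5 times in total or in 1 direction gave 188 above and 34 below with the higher floor, 304 and 86 unfiltered, 168 and 78 with separate samples, 128 and 157 without normal array 1, 46 and 8 without normal array 2, 52 and 15 without normal array 3, 121 and 121 without diabetic array 1, 168 and 119 without diabetic array 2, and 279 and 259 when only the 3 arrays of low actin ratio were used.

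Of the 17 probe sets, 16 lay above normal unscaled, where 90.3% of all tested probe sets did. With 1 array left out 7 to 11 did, beside 46.7% to 53.9% of all. Those with diabetic arrays above all normal arrays numbered 1 with median scaling, beside 8.17% of all tested probe sets. They numbered 7 on the 3 arrays of low actin ratio, beside 34.4%, and 2 to 4 with 1 array left out, beside 13.8% to 23.3%. Those below numbered 3 on these 3 arrays, beside 34.6%, and 0 to 3 with 1 left out, beside 12.3% to 21.9%. Fewer arrays overlap less often by construction. The log2 differences of D26393exon_s_at of Hk2, rc_AI012593_at of Hk1, M60322_at of Akr1b1 and D10655_g_at of Dlat kept their sign throughout.

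Signs turned for the following, and the cause was not tested. Unscaled values gave 0.15 and 0.37 for M13979_at and S68135_s_at of Slc2a1, 0.42 for U27319exon_at of Hk1, 0.45 for M60322_g_at of Akr1b1, 0.086 for rc_AI030175_s_at of Sord, and 0.43 and 0.4696 for U10357_at and U10357_g_at of Pdk2. All tested probe sets shifted by a median of 0.473 when unscaled, and each of these values lay below that shift. The higher floor gave -0.072 for D00092_s_at of Dlat. The 3 arrays of low actin ratio gave 0.026 for S68135_s_at, 0.25 for U27319exon_at, 0.19 for M60322_g_at, -0.035 for D00092_s_at and 0.049 for U10357_at. The shared day and lot gave -1.56 for X74593_at of Sord, -0.31 for D00092_s_at and 0.34 for D10655_at of Dlat. Taking another probe set of the gene gave -0.10 for Hk1, -0.049 for Akr1b1, 0.31 for Sord, and 0.056 and 0.12 for Dlat.

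With 1 array left out, the log2 difference ranged from -0.25 to 0.058 for S68135_s_at, -0.11 to 0.14 for D13962_g_at of Slc2a3, -0.36 to 0.14 for U27319exon_at, -0.077 to 0.56 for M68971_at of Hk2 and -0.26 to 0.17 for M60322_g_at. It ranged from -0.30 to 0.94 for X74593_at, -0.21 to 0.23 for M86235_at of Khk, -0.26 to 0.29 for D00092_s_at, -2.07 to 0.45 for D10655_at, -0.26 to 0.093 for U10357_at and -0.19 to 0.044 for U10357_g_at. Without diabetic array 1 or 2 the lone diabetic array was assumed to vary like normal pools. No paired analysis was possible because the 2 groups are separate pools and share only 1 replicate number in the labels. Low signal limits Pdk4 and 1 probe set of Slc2a3, which were at the floor.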
